A study of Homo sapiens with 40 samples.

Results

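The cells labelled sgSLC25A12 SLC25A12-WT are HEK293T cells whose label says that the gene SLC25A12 was knocked out and SLC25A12-WT was put back. They are called the labelled rescue here and were compared with wild-type HEK293T cells carrying vector (WT vector). The libraries of the comparison are given by their labels, by a rule that holds no measured value, though it was chosen with earlier results of these data known. They number 16 of the 40 libraries of the study, 4 from each of the 2 lines in vehicle and 4 from each under antimycin A. Antimycin A, which blocks complex III of the respiratory chain, was given at 40 nM, and both treatments lasted 6 hours. HEK293T is an established human embryonic kidney line. The label calls the vehicle condition normal, and the same genotype field, SLC25A12 knockout, stands on the labelled rescue, on knockout cells with vector (KO vector), on knockout cells labelled SLC25A12-F137S (F137S) and on those labelled SLC25A12-F137S dMTS-DELE1. The sources used here do not say whether any of these lines is 1 clone, how the transgenes were driven, or whether the 4 biological replicates of a group were separate cultures, so p-values measure the spread between libraries, which may be technical.

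SLC25A12 encodes a carrier in the inner mitochondrial membrane that exports aspartate to the cytosol in exchange for glutamate. It is a component of the malate-aspartate shuttle, which moves the reducing power of cytosolic NADH into mitochondria, and SLC25A13 encodes its close relative. When mitochondria are stressed, the protease OMA1 cleaves DELE1, which then activates the kinase HRI (EIF2AK1), and HRI phosphorylates eIF2 so that the transcription factor ATF4 is made and turns on the integrated stress response (ISR).

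Raw counts per gene symbol were available for 28278 symbols, of which 16739 passed a filter on low counts and were tested. Library totals of the labelled rescue and WT vector were nearly even, from 30.7 to 31.1 in units of 1e6 counts, while the other 24 libraries of the series ran from 30.8 to 32.0. CPM is the count per 1e6 counts of a library after TMM scaling. A gene rose, fell or changed here where the quasi-likelihood test of edgeR gave an adjusted p (Benjamini-Hochberg) below 0.05, and differences are log2 fold changes ± SE, labelled rescue minus WT vector unless another pair is named, with n = 4 libraries per group.

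SLC25A12 mRNA in the labelled rescue stood at the level of WT vector. The gene lies on chromosome 2 at 171783405 to 171894244 of GRCh38, is protein-coding, and was read over its whole symbol, so native transcript and any transgene transcript cannot be told apart. In vehicle the 4 WT-vector libraries held 39.9, 36.1, 39.9 and 39.0 CPM. The 4 labelled-rescue libraries held 38.9, 38.4, 38.9 and 39.2 CPM, which lie inside the range of WT vector. The 4 KO-vector libraries held 3.43, 2.99, 2.96 and 2.96 CPM, all far below the lowest labelled library. The F137S libraries ran from 1826 to 1867 CPM and the F137S dMTS-DELE1 libraries from 3693 to 3745 CPM, far above both the labelled rescue and WT vector.

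Under antimycin the order of the lines was the same. WT vector held 32.4, 28.6, 31.4 and 30.1 CPM of SLC25A12 and the labelled rescue 31.4, 30.2, 29.9 and 28.2 CPM, with the groups overlapping. KO vector held 2.39, 3.00, 2.66 and 2.97 CPM. The difference between labelled rescue and WT vector was 0.0057 ± 0.029 in vehicle, with a 95% interval from 0.964-fold to 1.045-fold (adjusted p = 1.0), and -0.034 ± 0.031 under antimycin, with an interval from 0.935-fold to 1.02-fold (adjusted p = 0.995). SLC25A12 fell with antimycin in both lines, by 0.34 ± 0.030 in WT vector (adjusted p = 1.02e-15) and by 0.38 ± 0.030 in the labelled rescue (adjusted p = 9.85e-18). The difference between these responses did not pass (-0.040 ± 0.043, adjusted p = 0.999).

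**Figure D1:**
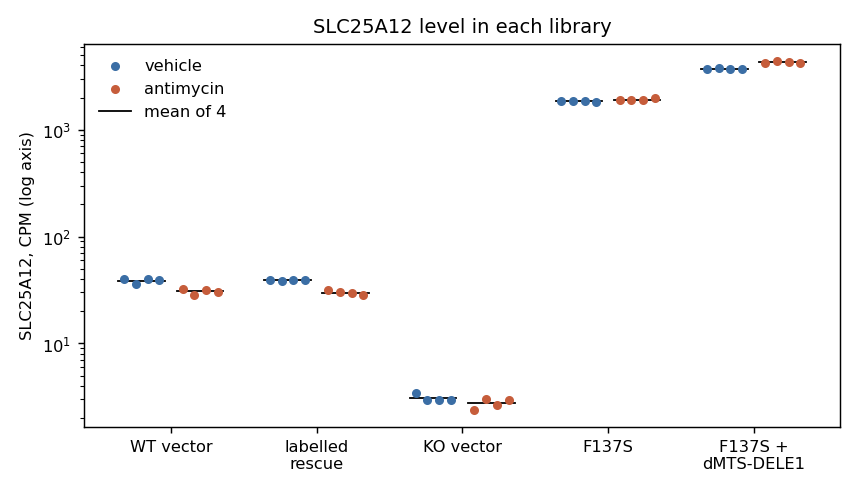
SLC25A12 level in CPM on a log axis for each of the 40 libraries, grouped by line, with vehicle in blue, antimycin in orange and a black bar at the mean of 4. The labelled rescue sits with WT vector at 28.2 to 39.2 CPM, above KO vector and below the lines labelled with SLC25A12-F137S.

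Across the transcriptome the labelled rescue was nearly indistinguishable from WT vector at this depth. In vehicle 0 of 16739 genes were called by edgeR (background 0%), the smallest adjusted p was 0.667, and the DESeq2 Wald test also called 0. An edgeR fit of only the 2 vehicle groups called 1 gene, NTAN1 (adjusted p = 4.8e-05). In the fit of all libraries an unadjusted p below 0.05 was seen for 778 genes, or 4.65%. This is close to the 5% that the threshold itself sets. Under antimycin edgeR called 1 gene, CFAP44 (background 0.00597%), and 805 genes, 4.81%, had an unadjusted p below 0.05. With the p scale cut into 10 equal bins, each bin held 9.37% to 10.5% of the genes in vehicle and 9.85% to 10.3% under antimycin, so the p-values were close to evenly spread. The same fit called 8080 genes (48.3%) between KO vector and WT vector in vehicle and 8034 (48.0%) under antimycin. Between the labelled rescue and KO vector it called 8004 (47.8%) in vehicle, 4227 higher and 3777 lower in the labelled rescue, and 8076 (48.2%) under antimycin, 4136 higher and 3940 lower. These 2 sets of comparisons share the KO-vector libraries.

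CFAP44 was the 1 gene called in the fit of all libraries. It encodes a cilia- and flagella-associated protein and lies on chromosome 3 at 113286930 to 113441514 of GRCh38. Under antimycin WT vector held 19.3, 21.7, 18.4 and 22 CPM and the labelled rescue 15.5, 16.9, 15.96 and 17.8 CPM. All 4 labelled libraries lay below all 4 WT-vector libraries, and the gene fell by 0.30 ± 0.059 (adjusted p = 0.0421). The call was lost with a block for the replicate number (adjusted p = 0.061) and in a fit of only the compared groups (adjusted p = 0.229). KO vector, at 16.8, 17.3, 19.5 and 16.8 CPM, overlapped both. In vehicle the groups overlapped, with 29.2, 28.9, 26.6 and 27.8 CPM in WT vector and 30.4, 27.4, 27.0 and 30.8 CPM in the labelled rescue (0.040 ± 0.055, adjusted p = 1.0). It was also lost when any of 5 single libraries was left out: with an adjusted p of 0.582 without WT vector antimycin replicate 2, 0.677 without replicate 4, and 0.473, 0.129 and 0.228 without labelled-rescue antimycin replicates 1, 2 and 3.

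**Figure D2:**
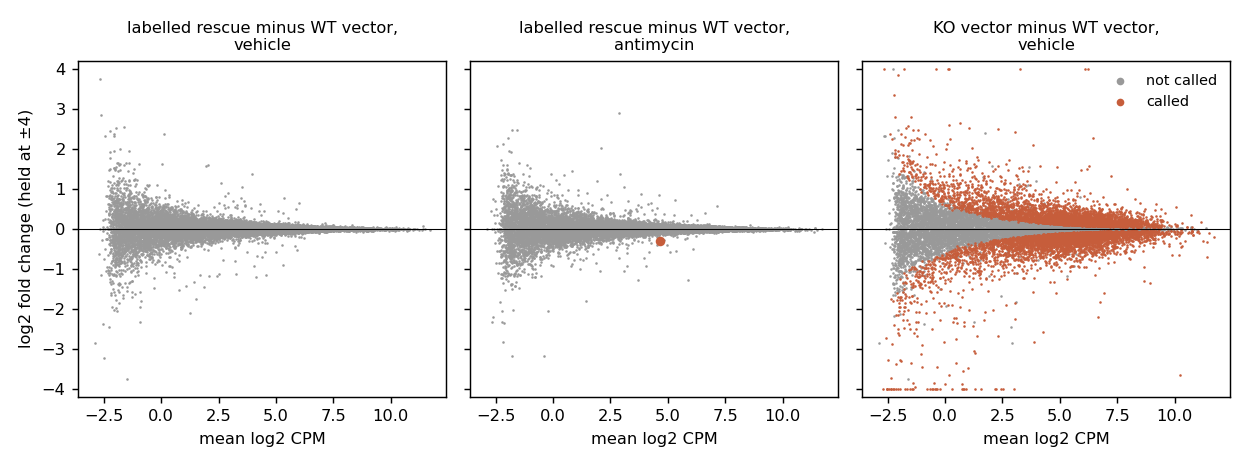
Log2 fold change of each tested gene against its mean log2 CPM, held at ±4, for labelled rescue minus WT vector in vehicle and under antimycin and for KO vector minus WT vector in vehicle, with called genes in orange and others in grey. The first panel has 0 called genes, the second has 1, and the third has 8080.

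Averaging the lines' differences over both treatments raises the precision, since 8 libraries stand on each side. With edgeR 0 genes were called (background 0%), 858 had an unadjusted p below 0.05 (5.13%), and the smallest adjusted p was 0.223. It belonged to PDK1, which encodes a kinase that inhibits pyruvate dehydrogenase. PDK1 stood at 49.4, 45.8, 52.5 and 50.3 CPM in WT vector and 54.4, 55.7, 53.6 and 55.4 CPM in the labelled rescue in vehicle. Under antimycin the values were 39.2, 43.4, 40.0 and 41.0 against 43.4, 45.3, 48.4 and 43.7 CPM. The labelled libraries were above all WT-vector libraries in vehicle, and under antimycin the lowest labelled library, at 43.43 CPM, lay just below the highest WT-vector library, at 43.44 CPM. The mean difference was 0.15 ± 0.031. DESeq2 called 3 genes in this average: PDK1 (adjusted p = 0.047), SHPK, which encodes sedoheptulokinase, and TMSB15B, a member of the beta-thymosin family. SHPK and TMSB15B are named because DESeq2 called them. In edgeR they gave 0.14 ± 0.031 (adjusted p = 0.244) and -1.16 ± 0.27 (adjusted p = 0.464).

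SHPK was 44.3, 42.4, 40.8 and 40.8 CPM in WT vector and 42.6, 44.9, 47.9 and 44.7 CPM in the labelled rescue in vehicle. Under antimycin it was 32.4, 33.5, 32.1 and 31.3 against 35.2, 36.6, 36.6 and 38.0 CPM, so the groups overlapped in vehicle and were apart under antimycin. TMSB15B was uneven inside WT vector, with 10.6, 12.9, 2.66 and 3.02 CPM in vehicle and 4.47, 7.98, 5.08 and 2.92 CPM under antimycin. The labelled rescue held 2.43, 2.48, 3.05 and 2.64 CPM in vehicle and 2.16, 2.48, 3.66 and 2.94 CPM under antimycin. KO vector held 2.14 to 3.15 CPM of TMSB15B in vehicle, which the labelled rescue overlapped.

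How small a difference could be bounded depended on a gene's abundance. In vehicle the 95% interval of the difference lay inside 1.5-fold in either direction for 78.1% of the 16739 genes and inside 2-fold for 88.8%. The median interval reached 1.089-fold to either side of its estimate. Among the 1978 genes with a mean log2 CPM of 7 or more, 99.9% lay inside 1.5-fold and 99.0% inside 1.1-fold. Among 3532 genes from 3 to 5 the share inside 1.5-fold was 97.8%, and among 2292 genes from 1 to 3 it was 89.2%. For the 3886 genes under 1 it was 14.6%, and 54.7% lay inside 2-fold, so a difference of 1.5-fold was mostly not detectable there at this depth. Under antimycin 78.2% of all genes lay inside 1.5-fold and 40.6% inside 1.1-fold. Between KO vector and WT vector, with intervals of the same median width in vehicle, 14.5% of genes lay inside 1.1-fold, against 40.7% between the labelled rescue and WT vector.

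The estimated differences were about as wide as their errors. The robust SD of the log2 fold changes over all genes was 0.065 in vehicle and 0.066 under antimycin, beside a median SE of 0.062 and 0.061. For KO vector minus WT vector the robust SD was 0.26 in both treatments, with a median SE of 0.062 in vehicle. Genes whose 4 labelled libraries did not overlap the 4 WT-vector libraries numbered 484 (2.89%) in vehicle, 239 higher and 245 lower in the labelled rescue, and 544 (3.25%) under antimycin, 283 higher and 261 lower. Between the labelled rescue and KO vector such genes made up 42.3% in vehicle and 43.2% under antimycin.

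The vehicle and antimycin differences come from separate libraries, so a lasting difference between the lines would recur in both. Across 16739 genes the differences in the 2 treatments had a Pearson correlation of -0.021 and a Spearman correlation of 0.0069, and 50.7% of genes had the same sign. Genes are not independent replicates, and these are descriptions. Of the 778 genes with an unadjusted p below 0.05 in vehicle, 51 (6.56%) had one under antimycin, against 4.81% of all genes. Of these 51, 34 had the same sign in both treatments, where 50.7% of all genes did. Both shares lay above their backgrounds, and the excess was not tested. Of the 16739 genes, groups did not overlap in both treatments for 15 in the same direction and for 11 in opposite directions. In the single treatments 2.89% of genes in vehicle and 3.25% under antimycin did not overlap. The number that chance would give in both was not computed.

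HSPA8, which encodes the constitutive HSP70 chaperone of the cytosol, was among the 15 and is a member of the heat shock list. In vehicle WT vector held 2099, 2049, 2045 and 2060 CPM and the labelled rescue 2043, 2020, 1949 and 1993 CPM. Under antimycin WT vector held 1484, 1466, 1480 and 1542 CPM and the labelled rescue 1439, 1459, 1445 and 1462 CPM. The labelled libraries were lower throughout, by a small margin that did not pass (-0.044 ± 0.026 in vehicle and -0.041 ± 0.026 under antimycin). HSPH1, which encodes an HSP110 chaperone, gave -0.067 ± 0.022 and -0.060 ± 0.023, and -0.064 ± 0.016 over both treatments (adjusted p = 0.464).

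Distances between whole libraries placed the labelled rescue close to WT-vector libraries. The distance used is the root mean square (RMS) difference in log2 CPM over all tested genes. In vehicle the 16 pairs of a WT-vector and a labelled-rescue library were 0.374 to 0.387 apart, and the 12 pairs inside the 2 lines were 0.370 to 0.386 apart. The 16 pairs of a labelled-rescue and a KO-vector library were 0.560 to 0.578 apart, and WT-vector to KO-vector pairs 0.557 to 0.576. Under antimycin the ranges were 0.365 to 0.383 between the lines, 0.364 to 0.378 inside them and 0.559 to 0.574 from the labelled rescue to KO vector. Of the 4 labelled-rescue libraries, 1 had a WT-vector library as its nearest neighbour in vehicle and 1 under antimycin. The other 3 in each treatment had a labelled-rescue library, so most were nearest to their own line. The share that like lines would give was not computed. Of the 4 WT-vector libraries, 2 were nearest to a labelled-rescue library in vehicle and 1 under antimycin. Over all genes this distance separates similar lines weakly. In vehicle F137S to KO-vector pairs were 0.3705 to 0.3879 apart, and pairs inside KO vector 0.3678 to 0.3785. At a mean log2 CPM of at least 3 these were 0.1579 to 0.1813 and 0.1231 to 0.1445. There WT-vector to labelled-rescue pairs were 0.1245 to 0.1487 apart, and pairs inside the labelled rescue 0.126 to 0.1413.

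No compared pair of libraries was an exact copy. A chi-square comparison of counts gave 2.97 to 4.59 per degree of freedom between the lines in vehicle and 3.12 to 4.62 under antimycin. Inside the labelled rescue it gave 3.01 to 4.32 and 2.95 to 3.81, and inside WT vector 3.20 to 3.53 and 3.16 to 4.201. All of these exceed the value of about 1 that noise of independent counts gives. Low counts, with an upper bound of 20, leaned even, with 55.6% to 58.7% of them even in labelled-rescue and WT-vector libraries. Such counts may not be independent, and the value that noise gives for them was not computed. The comparison therefore cannot tell separate libraries from repeat runs or splits of the same library. Each library was counted as 1 replicate.

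**Figure D3:**
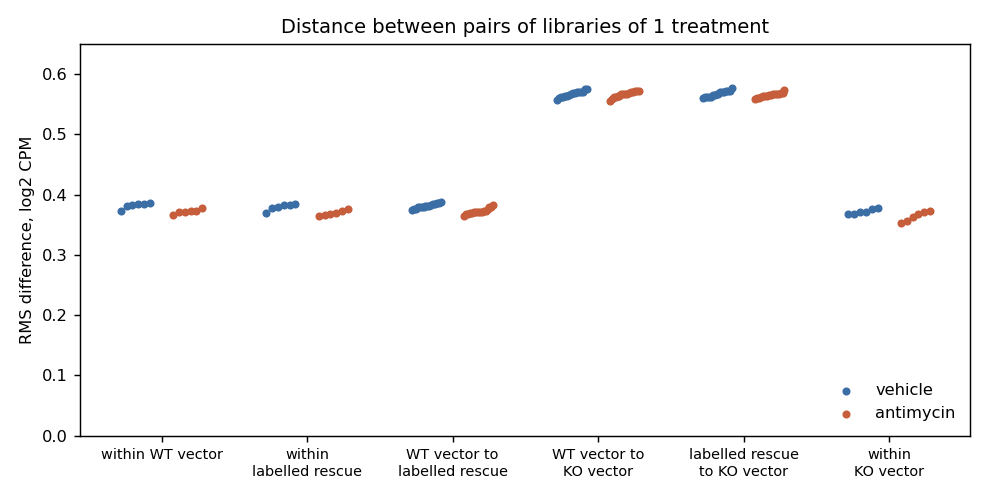
RMS difference in log2 CPM for each pair of libraries of the same treatment, by the lines of the pair, with vehicle in blue and antimycin in orange. Pairs of a WT-vector and a labelled-rescue library (0.374 to 0.387 in vehicle) overlap pairs inside each line, and pairs with KO vector (0.557 to 0.578) stand above.

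The spread inside a group was close in both lines and varied with abundance. The median SD of log2 CPM over 4 libraries was 0.076 in WT vector and 0.079 in the labelled rescue in vehicle, and 0.079 and 0.077 under antimycin. In vehicle it was 0.39 and 0.38 for genes under a mean log2 CPM of 1 and 0.026 and 0.029 for genes at 7 or more. A few abundant genes were far noisier than others of their abundance. They are named here for their spread inside groups, after their values were seen.

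PSMB3, which encodes a beta subunit of the 20S proteasome, held 42.2, 77.5, 36.5 and 6.40 CPM in WT vector and 102, 72.1, 42.7 and 62.5 CPM in the labelled rescue in vehicle. Under antimycin it held 22.2, 39.0, 5.37 and 106 CPM in WT vector and 7.85, 29.9, 8.64 and 70.9 CPM in the labelled rescue. CLK2, which encodes a kinase of splicing factors, ranged from 7.69 to 56.2 CPM inside the labelled rescue in vehicle and from 8.10 to 101 CPM under antimycin. The mean SD inside groups was 1.34 log2 units for PSMB3 and 1.14 for CLK2. RPS9, a protein of the small ribosomal subunit, was not 1 of these abundant genes and is named after its values were seen. Of 83 genes for cytosolic ribosomal proteins it had the highest difference in vehicle (1.38) and the lowest under antimycin (-0.72). RPS9 held 4.43, 7.88, 5.76 and 4.98 CPM in WT vector and 27.9, 6.00, 9.82 and 16.2 CPM in the labelled rescue in vehicle. Under antimycin the labelled rescue held 9.65, 3.51, 3.53 and 30.2 CPM of RPS9 and WT vector 21.7, 11.3, 23.3 and 21.2 CPM, so the line with the higher mean differed between the treatments. The sources used here do not give the counting settings, and their part in these values was not tested.

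Genes that set the other lines labelled sgSLC25A12 apart from WT vector bear on line identity. They were chosen without the labelled rescue: at least 2-fold different from WT vector, in the same direction and called, in KO vector, F137S and F137S dMTS-DELE1 alike. Genes chosen in 1 treatment were then read in the other, which uses separate libraries. Of 339 genes chosen under antimycin and read in vehicle, 157 were higher and 182 lower in the 3 lines, and the labelled-rescue mean lay nearer WT vector than KO vector for 320 (94.4%). The labelled libraries overlapped WT vector and not KO vector for 251, both for 74, KO vector and not WT vector for 4, and neither for 10. Of 326 genes chosen in vehicle and read under antimycin, 312 (95.7%) lay nearer WT vector, and the overlap was with WT vector and not KO vector for 254. The median distance of the labelled mean was 0.16 log2 units from WT vector and 1.36 from KO vector in vehicle, and 0.14 and 1.37 under antimycin.

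Library by library, the same genes placed all 8 labelled-rescue libraries with WT vector. The mean log2 CPM over the 182 genes that were lower in the 3 lines was 0.677 to 0.695 in WT vector, 0.673 to 0.705 in the labelled rescue and -1.33 to -1.27 in KO vector in vehicle. Over the 157 genes that were higher it was -0.441 to -0.392 in WT vector, -0.444 to -0.379 in the labelled rescue and 0.868 to 0.947 in KO vector. In the F137S libraries the higher genes stood at 0.913 to 0.934 and the lower genes at -1.32 to -1.25, close to KO vector. Under antimycin the genes lower in the 3 lines stood at 1.11 to 1.24 in WT vector and 1.15 to 1.22 in the labelled rescue, against -1.04 to -0.991 in KO vector. In these genes the libraries labelled sgSLC25A12 SLC25A12-WT did not group with the other lines labelled sgSLC25A12, and the cause was not tested.

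**Figure D4:**
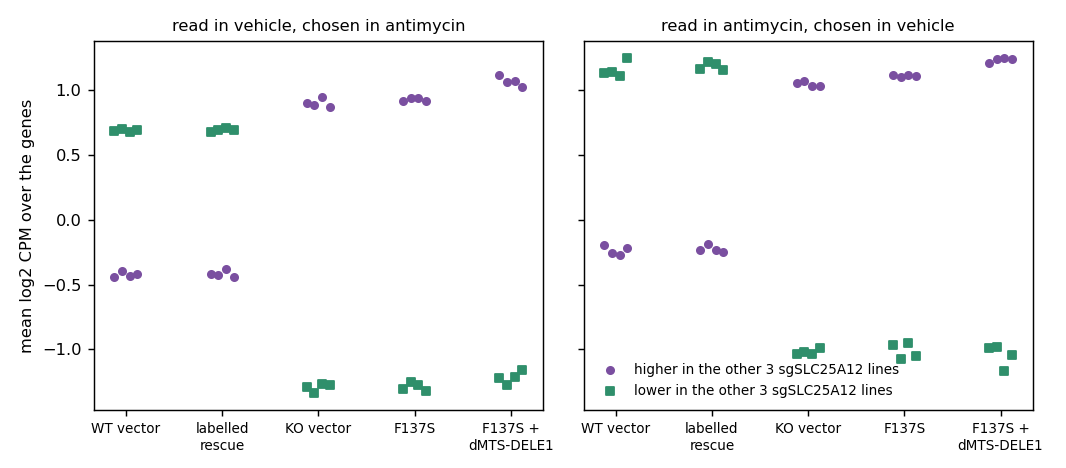
Mean log2 CPM in each library over the genes chosen as higher (purple circles) or lower (green squares) in KO vector and in both lines labelled SLC25A12-F137S than in WT vector, read in the treatment that did not choose them. The 8 labelled-rescue libraries lie at the levels of WT vector, and the other 3 lines labelled sgSLC25A12 lie together at other levels.

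The genes with the largest differences show the same in single libraries. CASP8, KIF1A and MKRN3 were named from the choice in vehicle alone. Their gap between WT vector and KO vector in vehicle is therefore read in the libraries that chose them. MAGEA6, a cancer-testis antigen gene on the X chromosome, held 15.3, 15.1, 12.98 and 13.7 CPM in WT vector and 15.9, 14.4, 15.8 and 13.8 CPM in the labelled rescue in vehicle, while the 4 KO-vector libraries had 0 counts of it. Its near-identical relatives MAGEA3 and MAGEA12, with which it could share reads, stood at 14.7 ± 0.746 and 13 ± 0.757 CPM (mean ± SD, n = 4) in WT vector and at 14.9 ± 1.95 and 12.5 ± 0.383 CPM in the labelled rescue. How reads are split among the 3 genes is uncertain. KO vector had 4 counts of MAGEA3 and 8 of MAGEA12 summed over its 4 vehicle libraries.

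DTX3, which encodes an E3 ubiquitin ligase of the Deltex family, was 5.16, 5.09, 5.63 and 6.17 CPM in WT vector and 6.63, 6.39, 5.14 and 5.36 CPM in the labelled rescue in vehicle, with 8 counts summed over KO vector. HAS2, which makes hyaluronan, was 21.0, 23.8, 25.6 and 24.3 CPM in WT vector and 24.3, 26.0, 25.1 and 26.6 CPM in the labelled rescue, against 0.597 to 1.27 CPM in KO vector. CASP8, the initiator caspase of death receptors, was 29.9 ± 1.09 CPM in WT vector, 30.8 ± 0.854 in the labelled rescue and 4.21 ± 0.406 in KO vector. KLF8, a Krüppel-like transcription factor, was 11.7 ± 0.538, 12.5 ± 1.51 and 0.197 ± 0.064 CPM in the same order. DDR2, a receptor kinase for collagen, was 37.2 ± 1.90, 37.8 ± 0.968 and 6.22 ± 0.380 CPM, and ZNF208, a zinc finger gene, 4.97 ± 0.336, 5.29 ± 0.486 and 0.591 ± 0.111 CPM. For these genes the labelled rescue overlapped WT vector and was apart from KO vector.

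Genes that were higher in the other 3 lines behaved alike. DBIL5P, a transcribed pseudogene, held 1.46, 2.09, 1.60 and 1.49 CPM in WT vector and 1.20, 1.42, 1.49 and 1.59 CPM in the labelled rescue in vehicle, against 179 to 182 CPM in KO vector and 174 to 182 CPM in F137S. KIF1A, a kinesin motor of axonal transport, was 23.2 ± 1.40 CPM in WT vector, 23.2 ± 1.08 in the labelled rescue and 113 ± 1.44 in KO vector. TPTE, a testis-expressed membrane phosphatase homologue, was 2.37 ± 0.403, 2.30 ± 0.358 and 12.8 ± 0.775 CPM. MKRN3, an imprinted gene of the makorin family, held 1.39, 0.864, 1.23 and 1.39 CPM in WT vector and 1.97, 1.76, 1.69 and 1.69 CPM in the labelled rescue in vehicle, with no overlap, against 6.35 to 7.62 CPM in KO vector. The MKRN3 difference did not pass (0.54 ± 0.15, adjusted p = 1.0), and under antimycin the groups overlapped (-0.094 ± 0.16).

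Genes read nearer KO vector were few and mostly of low abundance. In vehicle they numbered 19, and the highest of the 3 group means ran from -3.71 to 1.29 in log2 CPM. Under antimycin they numbered 14, from -1.98 to 2.28. GON7, which encodes a subunit of a tRNA-modifying complex and is named after its values were seen, was such a gene in vehicle. It held 6.22, 4.88, 1.099 and 0.929 CPM in WT vector and 0.933, 1.62, 0.863 and 1.12 CPM in the labelled rescue, against 0.858, 0.911, 0.441 and 5.00 CPM in KO vector, so single libraries of the reference lines differed by more than the line means. NAPRT, which encodes an enzyme of NAD synthesis from nicotinic acid and is also named after its values were seen, was 1 of the 4 genes that overlapped KO vector and not WT vector in vehicle. It held 6.52, 5.52, 3.73 and 9.06 CPM in WT vector and 3.03, 2.39, 3.52 and 2.25 CPM in the labelled rescue, and KO vector held 0.794, 0.911, 2.68 and 0.755 CPM. Under antimycin NAPRT was 10.3, 10.0, 8.16 and 5.77 CPM in the labelled rescue and 3.83, 6.82, 7.56 and 4.51 CPM in WT vector, so the labelled rescue had the higher mean there.

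No shuttle gene was called. Of 11 malate-aspartate shuttle and related genes tested, 0 were called in either treatment by edgeR and 0 had an unadjusted p below 0.05, with a median difference of -0.017 in vehicle and 0.0073 under antimycin beside -0.00019 and 0.00029 over all genes. SLC25A13 was 132 ± 3.07 CPM in WT vector and 129 ± 6.11 in the labelled rescue in vehicle, and 108 ± 1.94 and 108 ± 2.05 under antimycin. KO vector held 116 ± 2.15 and 101 ± 2.42 CPM of SLC25A13. MDH2, the mitochondrial malate dehydrogenase, was 414 ± 7.30 CPM in WT vector, 407 ± 8.54 in the labelled rescue and 387 ± 9.19 in KO vector in vehicle. GOT1, the cytosolic aspartate aminotransferase, was 84.5 ± 3.03, 86.7 ± 2.44 and 79.8 ± 2.35 CPM in the same order under antimycin.

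The relay from mitochondria to eIF2 also showed 0 called genes of 15 tested in either treatment, and 0 with an unadjusted p below 0.05. DELE1 was 49.6, 49.1, 48.0 and 51.6 CPM in WT vector and 48.7, 48.0, 52.0 and 50.01 CPM in the labelled rescue in vehicle, and 56.3 ± 1.30 and 57.6 ± 1.11 CPM under antimycin. OMA1 gave -0.053 ± 0.044 in vehicle and -0.048 ± 0.044 under antimycin. EIF2AK1 gave 0.026 ± 0.022 in vehicle and -0.043 ± 0.022 under antimycin. Antimycin raised EIF2AK1 in both lines, by 0.15 ± 0.022 in WT vector and 0.082 ± 0.022 in the labelled rescue, and the difference between these responses did not pass (-0.069 ± 0.031, adjusted p = 0.999).

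No ISR gene was called between the lines, and most ISR genes rose with antimycin in both. Of 30 ATF4 targets and ISR genes, 0 were called between the lines in vehicle (3 with an unadjusted p below 0.05) and 0 under antimycin (1). ATF4 itself held 600, 607, 594 and 601 CPM in WT vector and 590, 605, 597 and 591 CPM in the labelled rescue in vehicle. Under antimycin it held 768, 764, 772 and 751 CPM in WT vector and 771, 762, 765 and 756 CPM in the labelled rescue. These groups overlapped, and KO vector under antimycin held 639 to 683 CPM, below both. The difference of ATF4 under antimycin was -0.00074 ± 0.017, with an interval from 0.976-fold to 1.024-fold.

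Antimycin raised 25 of the 30 ISR genes in each line, against a background of 25.5% of all genes raised in WT vector and 25.9% in the labelled rescue. It lowered 3 in WT vector and 2 in the labelled rescue, beside 26.4% of all genes in each, and the median response was 0.77 in both. CHAC1, which degrades glutathione, was 2.35, 1.33, 2.097 and 1.82 CPM in WT vector in vehicle and 17.9, 18.5, 15.4 and 16.8 CPM under antimycin. In the labelled rescue it was 2.23, 1.59, 1.99 and 1.39 CPM in vehicle and 18.7, 18.8, 21.2 and 16.1 CPM under antimycin. The response of CHAC1 was 3.17 ± 0.12 in WT vector and 3.38 ± 0.12 in the labelled rescue. ATF3, a transcription factor induced by stress, rose by 1.58 ± 0.041 and 1.60 ± 0.041, DDIT3, which encodes CHOP, by 0.86 ± 0.065 and 0.88 ± 0.066, and ASNS, which makes asparagine, by 1.47 ± 0.14 and 1.61 ± 0.14. TRIB3, a pseudokinase, rose by less, 0.32 ± 0.049 in WT vector and 0.41 ± 0.049 in the labelled rescue.

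A few ISR genes had responses that were further apart, and the difference passed for none of the 30. NUPR1, which encodes a small stress protein, was 1.55, 1.16, 2.03 and 1.06 CPM in WT vector and 2.098, 1.59, 2.52 and 2.15 CPM in the labelled rescue in vehicle, and 5.65 ± 0.391 and 4.89 ± 0.556 CPM under antimycin. Its response was 1.96 ± 0.16 in WT vector and 1.23 ± 0.15 in the labelled rescue. STC2, a secreted glycoprotein, was higher in the labelled rescue in vehicle in a comparison that did not pass (0.099 ± 0.028, adjusted p = 1.0), and its response was 0.35 ± 0.028 in WT vector and 0.22 ± 0.027 in the labelled rescue. GDF15, a secreted stress hormone, rested on few counts, 20 summed over each line in vehicle and 69 against 40 under antimycin. Averaged over the 30 genes, log2 CPM per library was 3.89 to 4.01 in WT vector and 3.96 to 4.03 in the labelled rescue in vehicle. Under antimycin it was 4.79 to 4.80 and 4.74 to 4.78, ranges that did not overlap, while KO vector stood lower at 4.29 to 4.40. GDF15, on its few counts, had the lowest of the 30 differences under antimycin (-0.78 ± 0.34, adjusted p = 0.982), and the median difference of the 30 was -0.0018. Which genes set the 2 ranges apart was not tested.

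**Figure D5:**
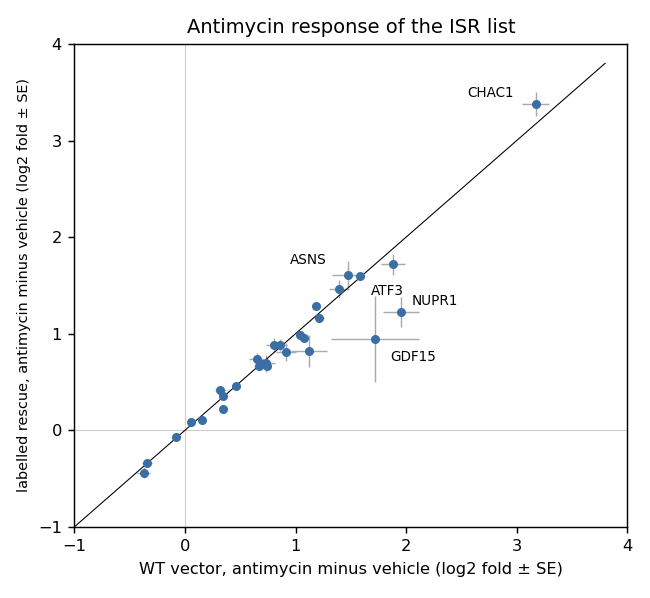
Log2 fold response to antimycin ± SE of ISR genes in the labelled rescue (vertical) against WT vector (horizontal), with the line of equal response. FGF21, at -3.75 in WT vector and -3.22 in the labelled rescue and called in neither, lies outside the axes, and NUPR1 and GDF15 lie furthest below the line.

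Over the whole table the antimycin response was also shared by the lines. Antimycin changed 8680 genes (51.9%) in WT vector and 8760 (52.3%) in the labelled rescue. The 7279 genes called in both in the same direction were 83.9% of the first and 83.1% of the second, and 1 gene was called in opposite directions. The 4 groups share no library, and the responses of the 2 lines had a Pearson correlation across genes of 0.729 over all 16739 genes and 0.938 over the 10561 genes with a mean log2 CPM of at least 3. A test of the difference of response called 0 genes in edgeR (background 0%), 756 with an unadjusted p below 0.05 (4.52%), and 0 with DESeq2.

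No member of any pathway list was called between the lines. The 22 lists held 844 member places, of which edgeR called 0 in either treatment. An unadjusted p below 0.05 was seen for 43 (5.09%) in vehicle and 28 (3.32%) under antimycin, beside 4.65% and 4.81% of all tested genes. Medians of the lists ran from -0.029 to 0.061 in vehicle and from -0.017 to 0.043 under antimycin. Over all genes the medians were -0.00019 and 0.00029. Of 83 genes for cytosolic ribosomal proteins, 13 had an unadjusted p below 0.05 in vehicle and 1 under antimycin, with medians of -0.025 and -0.00088. Of 24 immediate early genes, 0 and 2 did. Of 17 heat shock genes, 3 and 4 did, with medians of -0.025 and -0.017, and 6 did over both treatments. Their differences over both treatments ran from -0.064 (HSPH1) to 0.34 (HSPA6). Of 25 glycolysis and hypoxia genes, 3 and 1 did, and 6 over both treatments. Over both treatments 46 of the 844 places (5.45%) did, beside 5.13% of all tested genes, and no list was tested as a set. The growth-factor-induced gene FOSL1 stood at 1.84, 1.62, 2.22 and 2.33 CPM in WT vector and 2.78, 3.12, 3.89 and 2.74 CPM in the labelled rescue under antimycin (0.65 ± 0.17, adjusted p = 0.683).

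HEK293 markers were expressed in both lines, and markers of other cell types stood at low sums. In bulk RNA, fewer cells of a type and less RNA per cell cannot be told apart. The 14 HEK293 markers summed to 1369 to 1380 CPM in WT vector and 1367 to 1398 CPM in the labelled rescue in vehicle, and to 1406 to 1411 and 1384 to 1429 CPM under antimycin, with 1 marker, LHX1, under 1 CPM in all 4 groups. The 10 fibroblast markers summed to 21.6 to 22.9 CPM in WT vector and 19.8 to 22.3 CPM in the labelled rescue in vehicle, and to 22.6 to 24.8 and 23.8 to 26.2 CPM under antimycin. The 10 haematopoietic markers summed to 8.90 to 9.54 and 6.97 to 9.01 CPM in vehicle and to 7.53 to 9.07 and 7.71 to 8.53 CPM under antimycin. The 10 epithelial carcinoma markers, with 8 of them under 1 CPM in each group and KRT5 and KRT7 at 0 throughout, summed to 9.69 to 10.8 and 8.70 to 9.88 CPM in vehicle and to 9.85 to 11.9 and 11.6 to 13.99 CPM under antimycin. For all 3 lists the ranges of the lines overlapped in both treatments, and the line with the highest fibroblast and epithelial sum was not the same in vehicle and under antimycin. Hepatocyte markers summed to at most 0.806 CPM and endothelial markers to at most 1.96 CPM in the 4 groups. Of the tested genes 16065 could be placed on a chromosome. The largest median difference of a chromosome between labelled rescue and WT vector was 0.0063 in size in vehicle, on X, and 0.010 under antimycin, on 16, while between KO vector and WT vector it was 0.17 in size in both treatments, on 19.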

How the data were processed

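The authors deposited 1 table of raw counts per gene symbol for 40 libraries of poly(A) RNA. Per the labels' protocols, 150-base read pairs were made on a T7 instrument. The tools named in the submitters' processing notes are HISAT2 2.1.0 and featureCounts 2.0.6, with hg38 as the build. For settings, gene annotation and strand handling, nothing is given in the sources used here. Of the 13 genes of mitochondrial DNA, 0 are listed.

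Counts were filtered with filterByExpr, scaled by TMM and fitted with edgeR 4.0.16 (robust quasi-likelihood, R 4.3.3), 1 coefficient for each line and treatment over all 40 libraries, with Benjamini-Hochberg adjustment over the 16739 tested genes of a contrast. Log2 CPM adds a prior count of 2. DESeq2 1.42.0 was an alternative. The edgeR procedure was run on simulated counts for the 2 vehicle groups alone. The fit over all 40 libraries was not checked in that way. Members, gene lists and tests were chosen with earlier results of these data known. Genes named are fixed ISR, relay and shuttle genes, list members with the smallest p, called genes without overlap, and the largest differences among genes marking the other 3 lines. Those named after their values were seen are said to be so. Gene positions are RefSeq's on GRCh38.p14. Alternatives were other scaling, no filter, DESeq2, a fit of the pair of groups only, a block for the replicate number, a 1.5-fold minimum and each library left out. Totals of 30.7 to 32.0, in units of 1e6 counts, limit precision mainly for genes under a mean log2 CPM of 3.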

Additional observations from a re-analysis of the deposited data

Results flagged for a closer look

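In 2 of 96 groups of 4 libraries 1 library stood apart by Dixon's criterion, which chance gives in about 1 group of 20. DDIT3 was 10.7 CPM in labelled-rescue replicate 3 in vehicle, against 13.3 to 13.6 CPM in the other 3 libraries. TRIB3 was 23.0 CPM in WT-vector replicate 1 in vehicle, against 25.1 to 25.4 CPM in the other 3.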

How the results depend on the processing

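Counts of called genes and the other values above were recomputed under a block for the replicate number, a fit of only the compared groups, no filter, DESeq2 size factors, the Wald test of DESeq2, a 1.5-fold minimum and each library left out in turn. Intervals, the 2 antimycin responses, and the left-out libraries for correlations, distances and marking genes were added after seeing the data.

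Between the labelled rescue and WT vector under antimycin the 1 call, CFAP44, became 0 with the replicate block (CFAP44 adjusted p = 0.061), 0 with the compared groups only (0.229) and 0 at 1.5-fold, and leaving out a library gave 0 to 1. CFAP44 stayed lower in the labelled rescue in all of these. In vehicle the edgeR fit of the compared groups only called 1 gene, NTAN1 (1.57, adjusted p = 4.8e-05), and over both treatments DESeq2 called 3. NTAN1 was 1.42, 1.13, 1.56 and 1.66 CPM in WT vector and 3.56, 5.07, 2.85 and 5.69 CPM in the labelled rescue in vehicle, and the groups overlapped under antimycin. Leaving out a library gave 0 calls in vehicle, over both treatments and for the difference of response.

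At 1.5-fold the labelled rescue differed from KO vector in 1405 genes in vehicle and 1491 under antimycin, and KO vector from WT vector in 1439 and 1482. Antimycin changed 1638 genes at 1.5-fold in WT vector and 1522 in the labelled rescue.

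The share of genes whose interval lay inside 1.5-fold was 83.52% in vehicle and 83.60% under antimycin with the compared groups only, a fit whose filter keeps fewer genes. With a library left out it was 76.52% to 76.74% in vehicle and 76.64% to 77.02% under antimycin.

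The correlation between the vehicle and antimycin differences was 0.0080 at a mean log2 CPM of at least 3, and -0.0324 to 0.0223 with a library left out. Among genes marking the other 3 lines at 4-fold, 98.91% lay nearer WT vector under antimycin and 92.78% in vehicle, so the share rose in 1 treatment and dropped in the other. At a mean log2 CPM of at least 3 the median distance between the lines over that inside them went from 0.9994 to 0.9765 under antimycin and from 0.9948 to 1.0058 in vehicle.

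By the rule that every same-numbered pair correlate above 0.1, the replicate numbers were not taken to pair the libraries. Residuals of WT-vector and labelled-rescue libraries of the same number correlated from -0.142 to 0.029 in vehicle and from 0.014 to 0.206 under antimycin, with means of -0.038 and 0.096 beside 0.013 and -0.032 for different numbers. Of the labelled libraries, 0 of 4 in vehicle and 3 of 4 under antimycin correlated best with their own number, a hint of pairing in the treatment where the block ended the CFAP44 call. The block changed no other call count by more than 1.5 times, with 0 calls in vehicle. Of 46 differences for single genes, only CFAP44 under antimycin was called in the main fit. Among 598 alternative values, 591 kept their status, which was not called for every difference but that of CFAP44. The other 7, all for CFAP44, lost the call, and 32 values turned sign without being called in either fit. Depth limits genes under a mean log2 CPM of 1, where few intervals lie inside 1.5-fold.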
